A study of Mus musculus with 8 samples.

Results

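SR proteins, hnRNPs and tissue splicing regulators are RNA-binding proteins that decide which exons the spliceosome joins, and their mRNA was measured in the livers of hepatocyte Usp39 knockout mice and their controls. Members were taken by symbol: every gene named Srsf or Hnrnp with a number or letters after it, and a list of 21 more (Tra2a, Tra2b, Ptbp1 to Ptbp3, Rbfox2, Mbnl1, Mbnl2, Celf1, Celf2, Esrp1, Esrp2, Clk1 to Clk4, Srpk1, Srpk2, Son, Srrm1 and Srrm2). This gave 52 of the 55385 genes in the table. They fall into 5 classes: 13 SR proteins, 23 hnRNPs, 7 tissue splicing regulators, 6 kinases of SR proteins, and 3 proteins of nuclear speckles.

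SR proteins carry an RNA recognition motif and a tail rich in arginine and serine. They bind exonic enhancers and help U1 and U2 snRNP to find nearby splice sites. Most hnRNPs coat nascent RNA, and many of them block splice site use, so that exon inclusion often follows the balance of the groups. CLK and SRPK kinases phosphorylate the tails of SR proteins and thereby set whether they sit in speckles, in the nucleoplasm or in the cytoplasm. Tissue regulators such as the ESRP, MBNL, CELF and RBFOX proteins add cell type and age, and in liver ESRP2 is known for the splicing programme of mature hepatocytes. Many SR and hnRNP genes adjust their own mRNA through exons or introns that send it to nonsense-mediated decay, and a count per gene adds those transcripts to the productive ones.

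The study compared livers of 4 Usp39-HKO and 4 control mice, male littermates sampled at an age of 5 weeks after a fast of 16 h. Usp39 encodes a protein of the tri-snRNP, the particle of U4, U6 and U5 snRNA that enters the spliceosome before catalysis. In Usp39-HKO mice, exon 2 of Usp39 was flanked by loxP sites on both alleles and deleted by Cre under the albumin promoter, which is active in hepatocytes, while most other cells of the liver keep the gene. The labels call the control mice WT and the paper calls them control littermates, and whether they carried a floxed allele or Cre is not stated there. Each mouse gave 1 bulk RNA library and no mice were pooled. In bulk liver, fewer cells of a type and less RNA per cell cannot be told apart.

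Gene counts summed to between 8589636 and 10418450 per mouse, so that 3 counts corresponded to between 0.288 and 0.349 CPM (counts relative to the library total), a floor that covers counting error only. Genes reaching 0.5 FPKM (fragments per kilobase of exon, relative to the library total) in 4 or more livers, 14340 in number, entered edgeR's quasi-likelihood test, scaled with TMM factors, and a gene was called at a Benjamini-Hochberg adjusted p under 0.05. Levels below are FPKM on TMM-scaled totals, and mice are numbered within each genotype. Control livers had a Usp39 level of 10.4 ± 0.705 and Usp39-HKO livers one of 7.80 ± 0.680 (SD, n = 4 each). It fell by 0.41 on the log2 scale (SE 0.11, edgeR adjusted p = 0.0212), with every Usp39-HKO liver below every control. That call was lost without TMM (log2 fold change -0.18, adjusted p = 0.241), and also without control 4 (adjusted p = 0.0539) or without Usp39-HKO 4 (adjusted p = 0.0684).

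Other cells of the liver differed between the genotypes too, and their part in the results below was not tested. Of the hepatocyte markers, 4 of 8 fell and none rose, with summed levels of 18100 to 20400 in the control and 12800 to 19800 in the Usp39-HKO group. Rises were called for 4 of 4 tested cholangiocyte markers (summed 3.84 to 4.65 against 5.61 to 22.2), 6 of 8 stellate and fibroblast markers (67.3 to 81.7 against 103 to 169), 5 of 6 Kupffer and macrophage markers (301 to 359 against 454 to 594) and 5 of 6 cycling cell genes (12 to 17.8 against 28.9 to 41.3). Both tested erythroid genes and 2 of 6 endothelial markers fell, and 1 of 6 tested lymphocyte and neutrophil markers rose. Acinar pancreas genes summed to 513 in control 4 and to at most 3.98 in the other livers. Usp39-HKO 4 stood farthest along the first principal component. No marker list had a gene at 0 counts in all mice.

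Of the 52 members, 50 passed the filter on low values and 6 were called, 3 higher and 3 lower in Usp39-HKO livers. Mbnl2, Hnrnpa1 and Srsf10 rose, and Esrp2, Hnrnpul2 and Hnrnph3 fell. The 6 are 12% of the tested members, whereas 22.5% of all genes tested were called, 10.9% higher and 11.6% lower. The study's own cutoff asks for a raw p under 0.05 and a log2 fold change beyond 0.5 in either direction, and 3 members met it (Esrp2, Mbnl2 and Hnrnph3), against 21.7% of all genes. An unadjusted p under 0.05 was reached by 12 members, and by 35.3% of all genes. The median log2 fold change was 0.06 over the tested members and -0.00 over all genes tested, and 30 members had a positive and 20 a negative value.

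**Figure D1:**
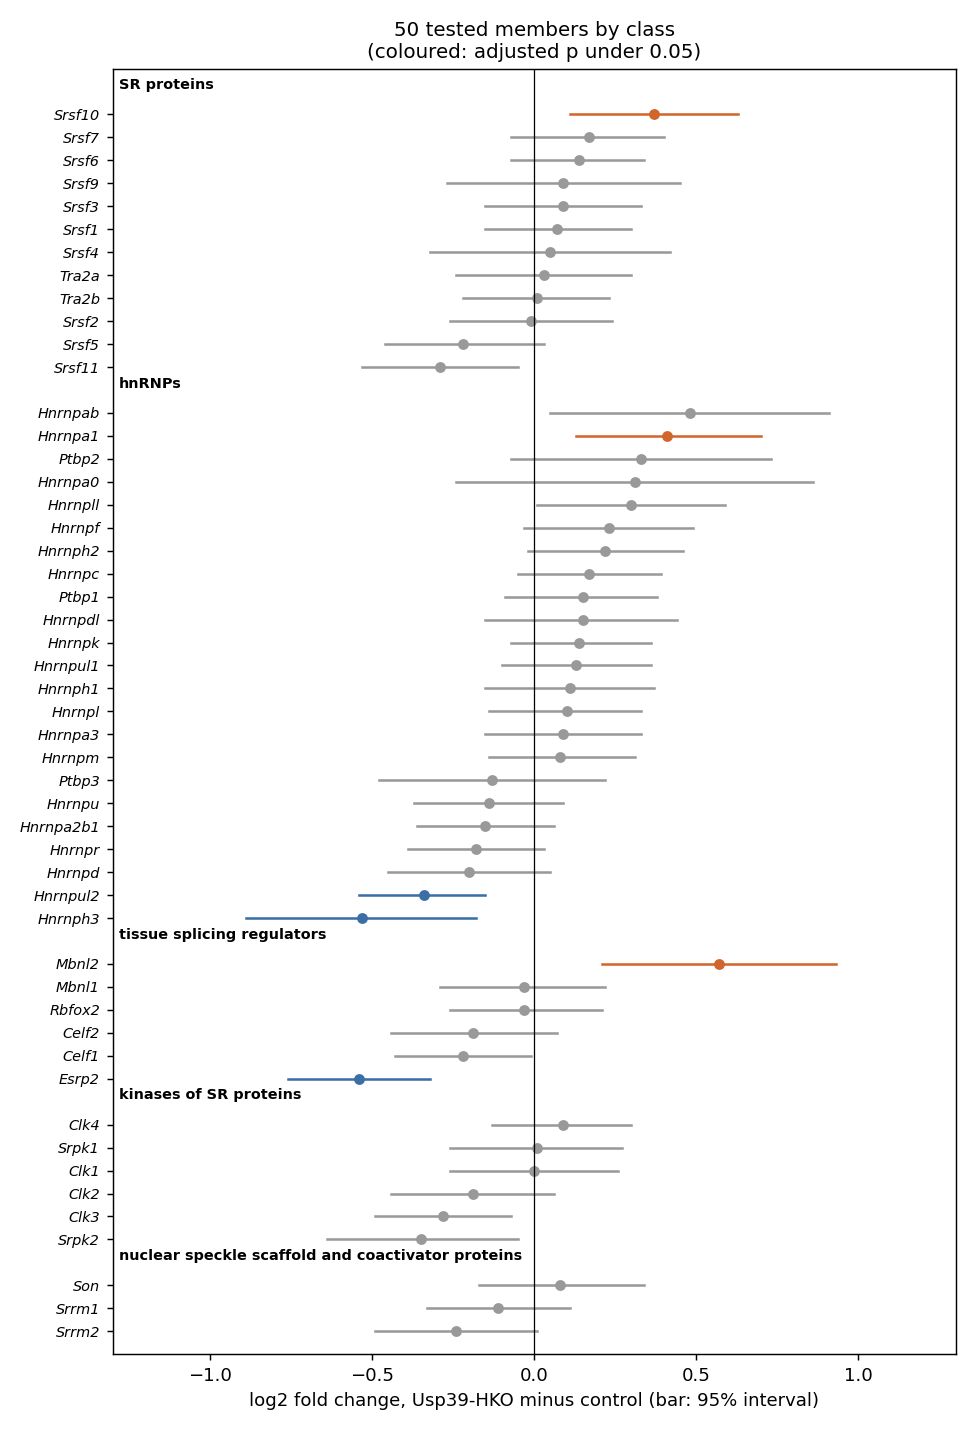
Log2 fold change of each of the 50 tested members, Usp39-HKO minus control (horizontal axis), in their 5 classes. Points are edgeR estimates with TMM scaling, bars 95% intervals, and coloured members had an adjusted p under 0.05 (3 higher, 3 lower). All values lie between -0.54 and 0.57.

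With TMM scaling, estimates were narrow enough to bound most members. Of the 44 that were not called, 38 had a 95% interval that stayed within 0.5 of 0 on the log2 scale, and the interval of every tested member stayed within 1. Hnrnpa0, Hnrnpab, Hnrnpll, Ptbp2, Srpk2 and Srsf11 were the 6 whose interval reached beyond 0.5 without a call. These intervals leave out the choice of scaling, and without TMM the median of the members moved from 0.06 to 0.30. The mean log2(level + 1) over the tested members was 3.78 to 3.84 over the controls and 3.78 to 3.88 over the Usp39-HKO livers, so the groups overlapped.

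The count and its direction depended on the scaling. Without TMM, when only library totals were used for scaling, the median of all genes moved to 0.23 and that of the members to 0.30, and 14 members changed sign. Then 19 members were called, 18 higher and 1 lower, when 24.5% of all genes were called higher and 4.9% lower. Of the 6 calls, Mbnl2, Hnrnpa1, Srsf10 and Esrp2 passed with and without TMM. Another 15 members passed only without it, all of them higher: 12 hnRNPs and 3 SR proteins. Under median-ratio scaling and in DESeq2 the same 6 members were called, and under upper-quartile scaling 5 of them, without Hnrnph3.

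**Figure D2:**
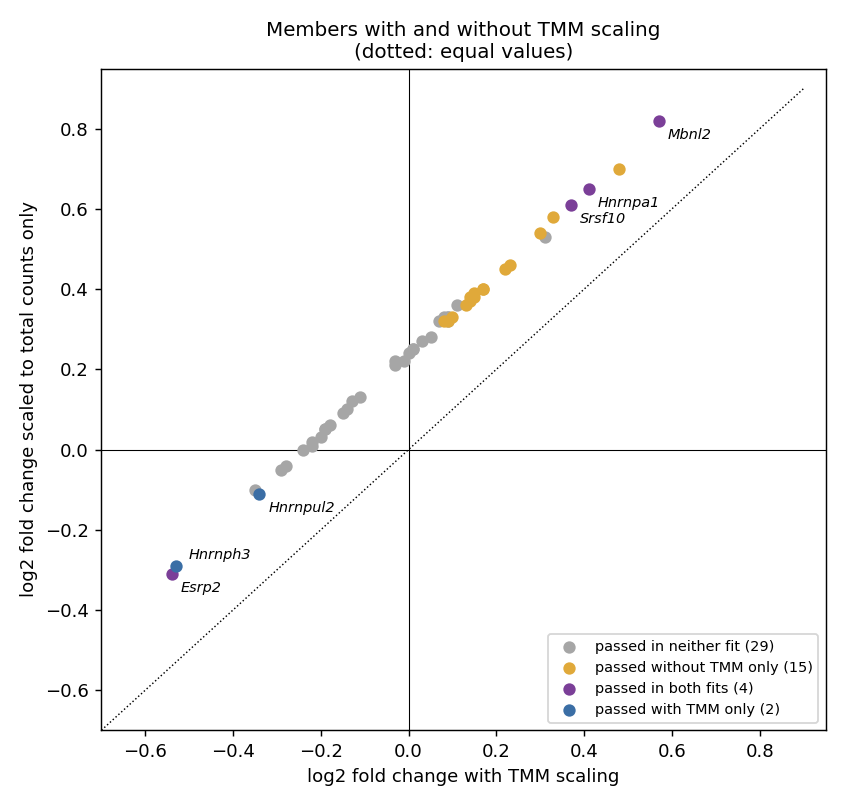
Log2 fold change of the 50 tested members with TMM scaling (horizontal axis) and scaled to total counts only (vertical axis), 1 point per gene, with a dotted line of equal values. Every point lies above the line, and the colours separate the 4 members that passed in both fits, the 15 that passed without TMM only, the 2 that passed with TMM only and the 29 that passed in neither.

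Values of the groups did not overlap for 8 members, against 24.8% of all genes tested. Hnrnpc and Srsf10 were higher in every Usp39-HKO liver (11.9% of all genes). Celf1, Clk3, Esrp2, Hnrnpa2b1, Hnrnpul2 and Srsf11 were lower in every Usp39-HKO liver (12.9% of all genes). Groups without overlap always give the smallest p that 4 mice against 4 allow (two-sided exact permutation test, unadjusted p = 0.0286). That p therefore adds nothing to the count. On the deposited FPKM, which are scaled to the total count alone, 15 members were higher and 2 lower without overlap, against 23.9% and 4.81% of all genes.

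Called members that rose are shown first by the sequence before their RefSeq transcription start, with that of Hnrnph3, which fell, beside them. Each sequence has 250 bases (GRCm38.p6, 5′ to 3′ on the strand of the gene, ending at the base before the start). The members that rose share the direction of the call and not the order of the livers. Capitals mark CCAAT and GGGCGG on either strand (the CCAAT box and the GC box, which bind NF-Y and Sp proteins). The RefSeq table gave no window for Esrp2 and Hnrnpul2. RefSeq starts differ from the GENCODE vM21 gene coordinates given below for all of these genes but Mbnl2. The windows of Srsf10 and Hnrnph3 lie inside the annotated gene, and that of Hnrnpa1 ends some bases before it begins.
Mbnl2 (chr14:120275419-120275668, plus strand): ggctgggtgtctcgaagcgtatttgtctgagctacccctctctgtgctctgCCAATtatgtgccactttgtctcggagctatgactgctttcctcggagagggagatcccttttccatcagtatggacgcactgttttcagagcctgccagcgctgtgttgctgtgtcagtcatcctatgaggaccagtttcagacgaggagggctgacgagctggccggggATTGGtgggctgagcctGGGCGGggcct
Hnrnpa1 (chr15:103240147-103240396, plus strand): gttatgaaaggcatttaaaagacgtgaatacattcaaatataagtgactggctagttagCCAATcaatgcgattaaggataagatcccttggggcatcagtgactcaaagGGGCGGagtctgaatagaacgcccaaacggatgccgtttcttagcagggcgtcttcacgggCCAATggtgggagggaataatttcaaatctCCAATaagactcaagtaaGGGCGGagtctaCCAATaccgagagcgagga
Srsf10 (chr4:135855821-135856070, plus strand): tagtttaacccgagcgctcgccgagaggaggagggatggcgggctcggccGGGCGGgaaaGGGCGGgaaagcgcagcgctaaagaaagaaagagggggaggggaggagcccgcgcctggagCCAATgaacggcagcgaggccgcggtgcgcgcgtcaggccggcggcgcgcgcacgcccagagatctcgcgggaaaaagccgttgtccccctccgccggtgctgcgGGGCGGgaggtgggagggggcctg
Hnrnph3 (chr10:63023850-63024099, minus strand): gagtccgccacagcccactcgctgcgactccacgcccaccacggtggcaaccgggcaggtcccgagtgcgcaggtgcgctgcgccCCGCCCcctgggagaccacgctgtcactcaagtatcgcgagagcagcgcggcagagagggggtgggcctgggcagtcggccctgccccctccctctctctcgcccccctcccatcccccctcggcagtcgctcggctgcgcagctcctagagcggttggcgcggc
Hnrnpa1 held 4 CCAAT and 2 GGGCGG matches, Srsf10 1 and 3, Mbnl2 2 and 1, and Hnrnph3 a single GGGCGG. Windows were found for 45 members, 65 in all, since some genes have several starts. CCAAT was in 43.1% of them and in 33.8% of the 32851 windows of the table, and GGGCGG was in 72.3% and 32.7%. CCGGAA, the core letters of ETS sites, was in 26.2% and 12%, CACGTG (the E-box) in 9.23% and 6.02%, GAANNTTC (an inverted pair of heat shock units) in 9.23% and 6.69%, and TGACGTCA (the cyclic AMP response element) in 3.08% and 1.55%. Windows of members also held more CpG (median 23, against 6 over all windows) and had a median GC content of 63.6%, against 52.4%, so windows that hold GC-rich letters are counted against a background of lower GC. These matches describe letters in the windows and no binding was measured.

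Among the tissue splicing regulators, Esrp2 fell, Mbnl2 rose, 4 of the 6 tested were not called, and the median log2 fold change was -0.11. Of all genes tested 22.5% were called, and a class of 6 is too small to set against that share. Esrp2 (chromosome 8, 106130319 to 106136974, GRCm38, minus strand) encodes an epithelial regulator that binds GU-rich sequence beside epithelial exons. Its level was 33.5, 33.1, 35.2 and 32.7 in controls 1 to 4 and 26.5, 23.8, 21.5 and 20.9 in Usp39-HKO 1 to 4. The groups did not overlap, and Usp39-HKO 4 was the lowest. From 33.6 ± 1.11 to 23.2 ± 2.56 (SD, n = 4), Esrp2 fell by 0.54 on the log2 scale (SE 0.10, 95% interval -0.76 to -0.32, edgeR adjusted p = 0.00422), to 0.689 of the control level. It was the only member that remained called in all 17 alternatives. With 1 mouse left out its log2 fold change lay between -0.58 and -0.48 (edgeR adjusted p between 0.00194 and 0.019), and without TMM it was -0.31. Exons of genes on the opposite strand cover 7.788% of its exon length, and whether the counting used strand is not given in the sources used here.

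Esrp1, its paralog of other epithelia, did not pass the filter on low values. It had 4, 3, 3 and 6 counts in controls and 2, 15, 8 and 23 in Usp39-HKO livers. Usp39-HKO 4 was highest and Usp39-HKO 1 lowest of all 8 livers, so the groups overlapped. The cholangiocyte markers, which rose, had the same highest liver, with a sum of 22.2 in Usp39-HKO 4 and 5.61 in Usp39-HKO 1.

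Mbnl2 (chromosome 14, 120275669 to 120431697, plus strand) encodes a muscleblind protein that binds YGCY motifs and, with MBNL1, takes splicing from fetal to adult patterns. Mbnl2 was at 5.01, 3.28, 3.89 and 3.48 in controls and at 4.25, 6.33, 5.88 and 6.76 in Usp39-HKO livers. Control 1 was above Usp39-HKO 1, so the groups overlapped, while the other 3 Usp39-HKO livers were above every control. It rose by 0.57 on the log2 scale (SE 0.17, interval 0.21 to 0.93, edgeR adjusted p = 0.0296), from 3.92 ± 0.771 to 5.80 ± 1.10, or 1.48-fold. The call was lost without any 1 of controls 2, 3 and 4 and Usp39-HKO 2, 3 and 4 (adjusted p = 0.0588 to 0.0908), and kept without control 1 or Usp39-HKO 1. Mbnl1, at 7.68 ± 0.925 and 7.51 ± 0.731, had a log2 fold change of -0.03 (interval -0.29 to 0.22, edgeR adjusted p = 0.874).

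Celf1, which binds GU-rich elements and opposes MBNL proteins on shared exons, was at 22.4, 19.7, 21.7 and 20.4 in controls and at 16.9, 18.5, 19.2 and 17.5 in Usp39-HKO livers. Its groups did not overlap, but the log2 fold change of -0.22 (SE 0.09) did not pass the test (edgeR adjusted p = 0.119) and was 0.02 without TMM. Celf2 ranged from 1.26 to 1.72 and Rbfox2, which binds GCAUG, from 6.46 to 8.31 over the 8 livers, with log2 fold changes of -0.19 and -0.03, and neither passed.

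**Figure D3:**
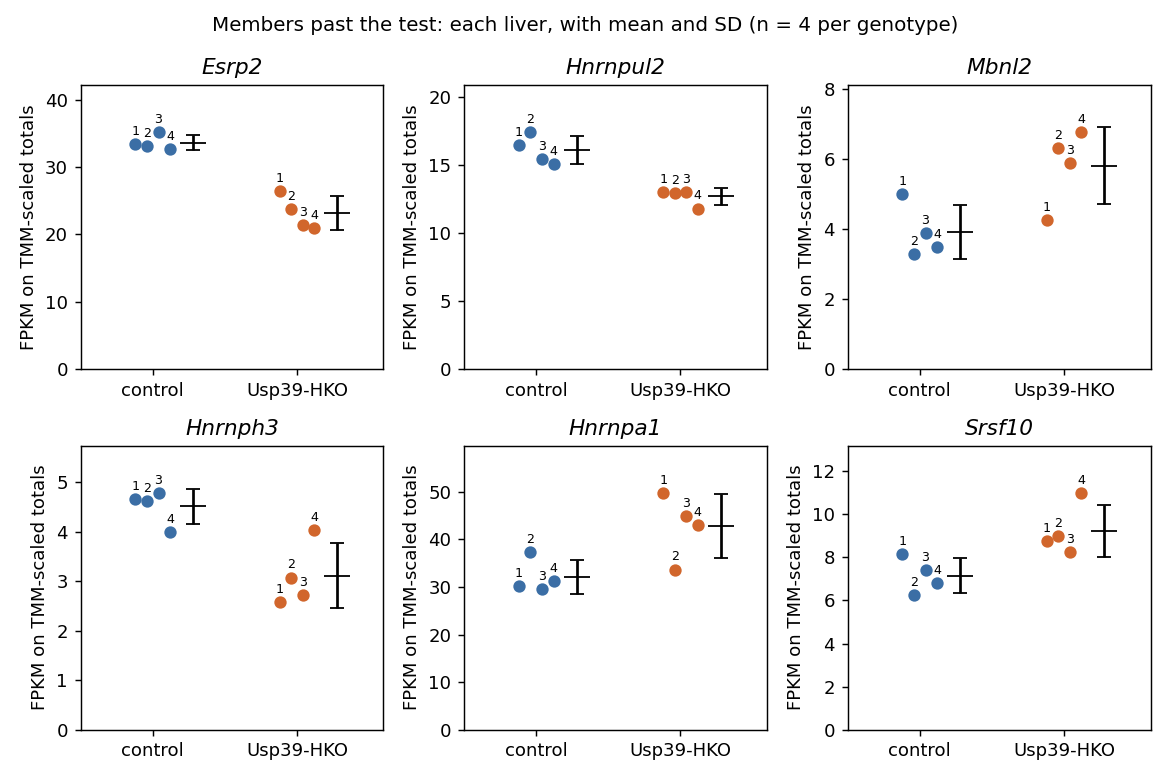
FPKM on TMM-scaled totals of the 6 members past the test (vertical axis, from 0) in each liver, 4 controls in blue and 4 Usp39-HKO in orange, numbered as in the text, with the mean and SD of each genotype in black. Groups do not overlap for Esrp2, Hnrnpul2 and Srsf10 and overlap for Mbnl2, Hnrnph3 and Hnrnpa1.

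The hnRNPs were the largest class, and 1 of 23 rose, 2 fell and 20 were not called, with a median log2 fold change of 0.13 and 16 positive values. The 3 called are 13% of the class, against 22.5% of all genes tested. Hnrnpa1 (chromosome 15, 103240432 to 103246692, plus strand) encodes a protein that binds UAG-containing silencers and antagonizes SR proteins at 5′ splice sites. Its level was 30.3, 37.4, 29.6 and 31.1 in controls and 49.8, 33.7, 44.9 and 42.9 in Usp39-HKO livers. Usp39-HKO 2 was below control 2 and the other 3 Usp39-HKO livers were above every control. Hnrnpa1 rose from 32.1 ± 3.61 to 42.8 ± 6.73, by 0.41 on the log2 scale (SE 0.13, interval 0.13 to 0.70, edgeR adjusted p = 0.0415). The call was kept without control 2 or Usp39-HKO 2 and lost when any other single mouse was left out (adjusted p = 0.062 to 0.121), as well as with a correction for GC content, where the log2 fold change was 0.42 (adjusted p = 0.0625), and without TMM the value was 0.65. Of its longest transcript, 36% is shared at 97% identity or more with 7 other genes, most of them named as pseudogenes or predicted genes, and the counting could split reads among them.

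Hnrnph3 (chromosome 10, 63014664 to 63024217, minus strand) belongs to the hnRNP H/F family, which binds G runs. In controls it was at 4.66, 4.61, 4.78 and 3.98, and in Usp39-HKO livers at 2.58, 3.07, 2.72 and 4.04. Usp39-HKO 4 lay above control 4, and the other 3 Usp39-HKO livers were below every control. It fell by 0.53 on the log2 scale (SE 0.16, interval -0.89 to -0.18, edgeR adjusted p = 0.0353). Without Usp39-HKO 4 the log2 fold change was -0.68 (adjusted p = 0.014), and without any other single mouse the call was lost (adjusted p = 0.0522 to 0.0983). The call was also lost without TMM (log2 fold change -0.29, adjusted p = 0.276) and with upper-quartile scaling (-0.47, adjusted p = 0.0635). Its relatives Hnrnph1, Hnrnph2 and Hnrnpf were not called, with log2 fold changes of 0.11, 0.22 and 0.23. Shared sequence covers 54.1% of the longest Hnrnpf transcript and 33.7% of that of Hnrnph2, and none of that of Hnrnph3. Exons of genes on the opposite strand cover 26.45% of the exon length of Hnrnpf.

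Hnrnpul2 (chromosome 19, 8820010 to 8834143, plus strand) encodes a relative of HNRNPU, the scaffold attachment protein, with a role in DNA repair. It stood at 16.5, 17.4, 15.4 and 15.1 in controls and at 13.0, 12.9, 13.0 and 11.8 in Usp39-HKO livers. The groups did not overlap. It fell by 0.34 on the log2 scale (SE 0.09, interval -0.54 to -0.15, edgeR adjusted p = 0.019), and the call was lost without control 1 (adjusted p = 0.0529), without Usp39-HKO 4 (adjusted p = 0.0626) and without TMM (log2 fold change -0.11, adjusted p = 0.399). A gene on the same strand, AC129217.1, overlaps 5.065% of its exons. Hnrnpu and Hnrnpul1 were not called, with log2 fold changes of -0.14 and 0.13.

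The 2 hnRNPs with the highest level were Hnrnpa2b1, which binds UAG motifs and sorts RNA, and Hnrnpk, which binds C-rich sequence. Hnrnpa2b1 was at 54.7, 55.1, 54.9 and 50.7 in controls and at 46.0, 50.2, 49.0 and 49.4 in Usp39-HKO livers, without overlap, and its log2 fold change of -0.15 (SE 0.10, interval -0.36 to 0.06) was not called (edgeR adjusted p = 0.3) and was 0.09 without TMM. Hnrnpk was at 46.4, 46.9, 44.5 and 42.7 in controls and at 53.4, 46.4, 50.9 and 48.7 in Usp39-HKO livers. Its groups overlapped through Usp39-HKO 2 alone, and the log2 fold change of 0.14 (SE 0.10, edgeR adjusted p = 0.331) became 0.38 without TMM (adjusted p = 0.0148). Of the longest Hnrnpk transcript, 46.4% is shared with 2 predicted genes, so its reads may be split as well.

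Hnrnpab and Hnrnpa0, relatives of Hnrnpd and Hnrnpa1, varied widely between mice of the same genotype. Hnrnpab was at 32.9, 53.6, 31.7 and 38.9 in controls and at 64.6, 43.5, 67.1 and 44.1 in Usp39-HKO livers. Hnrnpa0 was at 35.3, 62.8, 37.1 and 34.2 in controls and at 69.8, 33.8, 64.0 and 42.1 in Usp39-HKO livers. The high livers were control 2, Usp39-HKO 1 and Usp39-HKO 3 for both genes. GC content was set beside the deviation of each gene from the mean of its genotype. In those same 3 libraries, the 20% of genes highest in GC had a higher median deviation than the 20% lowest. The difference was 0.22, 0.11 and 0.09 on the log2 scale, and between -0.15 and 0.01 in the other 5. Because deviations are centred within each genotype, positive values in some of its mice go with negative ones in others. The longest transcript of Hnrnpab has a GC content of 49.9%, near the median of all genes tested (49.4%), and that of Hnrnpa0 one of 55.4%. Exons of Phykpl, on the opposite strand, cover 29.08% of the exon length of Hnrnpab, and whether the counting used strand is not given. Neither gene was called (log2 fold change 0.48, adjusted p = 0.102 for Hnrnpab, and 0.31, adjusted p = 0.413 for Hnrnpa0, edgeR). With the correction for GC content, an alternative chosen after seeing the data, 6 members were called, when 24.7% of all genes were. Hnrnpab then had a log2 fold change of 0.50 (adjusted p = 0.0833) and Hnrnpa0 one of 0.32 (adjusted p = 0.326). Srpk2 passed the threshold and Hnrnpa1 missed it, with values close to those without the correction (-0.37 after -0.35 for Srpk2, 0.42 after 0.41 for Hnrnpa1).

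Polypyrimidine tract proteins, which repress exons by binding to CU-rich stretches, were not called. Ptbp1 had a log2 fold change of 0.15 (interval -0.09 to 0.38), Ptbp2, the neuronal paralog, 0.33 (interval -0.07 to 0.73) and Ptbp3 -0.13 (interval -0.48 to 0.22). Exons of genes on the opposite strand cover 20.74% of the exon length of Ptbp1. Hnrnpc, a nuclear protein that binds U-rich tracts and keeps U2AF from cryptic sites, was at 23.1, 20.4, 21.4 and 22.5 in controls and at 28.5, 23.2, 23.3 and 23.2 in Usp39-HKO livers. Every Usp39-HKO liver was above every control, by little except in Usp39-HKO 1, and the log2 fold change of 0.17 (interval -0.05 to 0.39) was not called (edgeR adjusted p = 0.259). A predicted gene shares 31.8% of its longest transcript. Hnrnpll, which in lymphocytes directs the exon choice of Ptprc, was at 3.58, 4.14, 3 and 2.79 in controls and at 4.44, 3.72, 4.19 and 4.30 in Usp39-HKO livers, with an overlap of control 2 and Usp39-HKO 2 (log2 fold change 0.30, edgeR adjusted p = 0.123). Ptprc, the marker of white blood cells, was the lymphocyte and neutrophil gene that rose.

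The remaining hnRNPs (Hnrnpa3, Hnrnpd, Hnrnpdl, Hnrnpl, Hnrnpm and Hnrnpr) had log2 fold changes between -0.20 for Hnrnpd and 0.15 for Hnrnpdl, and none was called. Hnrnpa3 shares 28.9% of its longest transcript with 16 other genes. Exons of March2, on the same strand, cover 14.69% of the exon length of Hnrnpm.

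Among the SR proteins, Srsf10 rose and the other 11 tested were not called, with a median log2 fold change of 0.06. The 1 call is 8.33% of those tested, against 22.5% of all genes tested. Srsf10 (chromosome 4, 135855747 to 135869908, plus strand) encodes an atypical SR protein, which represses splicing when dephosphorylated in heat shock or mitosis. It was at 8.15, 6.24, 7.41 and 6.82 in controls and at 8.74, 9, 8.23 and 11 in Usp39-HKO livers. Every Usp39-HKO liver was above every control, with Usp39-HKO 3 and control 1 close together and Usp39-HKO 4 highest. It rose from 7.16 ± 0.816 to 9.24 ± 1.21, by 0.37 on the log2 scale (SE 0.12, interval 0.11 to 0.63, edgeR adjusted p = 0.0465). The call was lost without control 2, 3 or 4 and without Usp39-HKO 2 or 4 (adjusted p = 0.0638 to 0.129), and without TMM the value was 0.61. With 14.6% of its longest transcript shared with 2 predicted genes, part of its reads may be split.

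Srsf5, whose protein promotes inclusion of exons with purine-rich enhancers, had the highest level of any member. It was at 71.4, 76.6, 69.2 and 70.4 in controls and at 72.0, 54.0, 60.9 and 60.3 in Usp39-HKO livers, where Usp39-HKO 1 lay among the controls. The log2 fold change was -0.22 (SE 0.11, edgeR adjusted p = 0.186), and 0.01 without TMM, and 19.9% of its longest transcript is shared with a predicted gene. Srsf2, which binds GGNG and CCNG motifs, followed at 36.2, 40.5, 37.0 and 45.8 in controls and 44.1, 41.8, 34.1 and 38.4 in Usp39-HKO livers. These overlapped throughout, with a log2 fold change of -0.01 (interval -0.26 to 0.24). Exons of genes on the other strand cover 25.29% of Srsf2.

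Srsf11 was the SR gene nearest to a call among those with lower values, at 15.7, 13.9, 15 and 14.7 in controls and 12.4, 13.4, 9.99 and 12.6 in Usp39-HKO livers (log2 fold change -0.29, edgeR adjusted p = 0.0739). The remaining SR genes lay between 0.01 for Tra2b and 0.17 for Srsf7, among them Srsf1 at 0.07 (interval -0.15 to 0.30) and Srsf3 at 0.09 (interval -0.15 to 0.33), founding members that act in constitutive splicing and mRNA export. Shared sequence covers 31.4% of the longest Srsf3 transcript. Srsf6 was at 27.8, 33.0, 28.1 and 30.3 in controls and at 33.4, 32.9, 31.5 and 33.1 in Usp39-HKO livers, with control 2 among the latter (log2 fold change 0.14, edgeR adjusted p = 0.336). Srsf9 was at 14.4, 21.7, 12.8 and 15.9 in controls and at 15.4, 15.5, 20.1 and 18 in Usp39-HKO livers, so that control 2 was above all others (log2 fold change 0.09, interval -0.27 to 0.45). Exons of an antisense gene cover 43.02% of Srsf4, whose level ranged from 3.76 to 6.11 over the 8 livers with overlap of the groups. Srsf12 did not pass the filter on low values and had 0 to 3 counts in each liver.

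**Figure D4:**
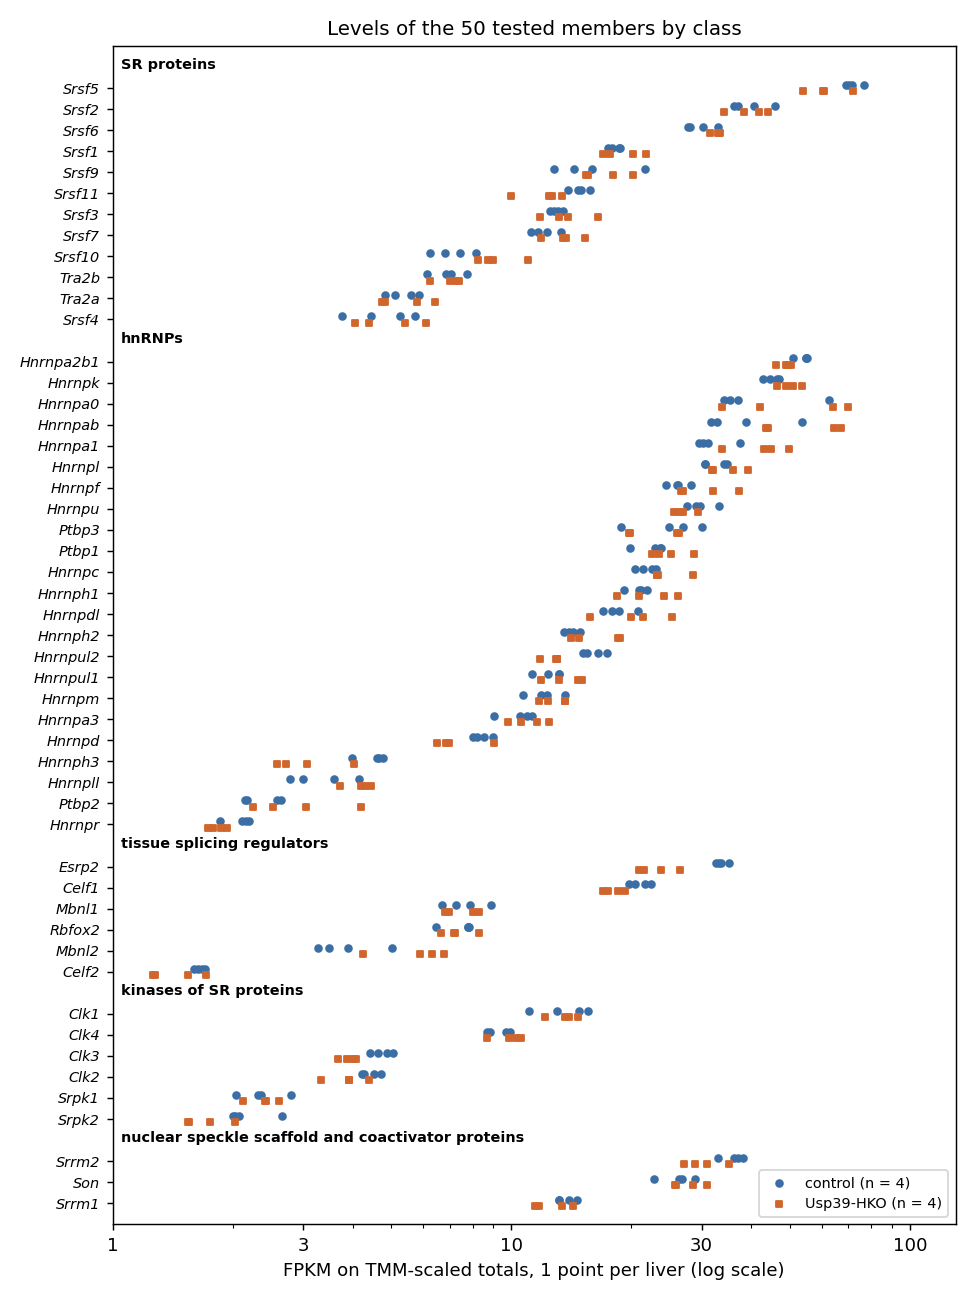
FPKM on TMM-scaled totals of the 50 tested members in each liver (horizontal log axis, 1 point per liver), controls as blue circles and Usp39-HKO as orange squares, ordered by mean level within each class. Srsf5 leads the SR proteins and all members, Hnrnpa2b1 the hnRNPs, Esrp2 the tissue regulators, Clk1 the kinases and Srrm2 the speckle proteins.

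No kinase of SR proteins was called, and the median log2 fold change of the 6 was -0.09. Of all genes tested 22.5% were called, and 6 genes are too few to set against that share. Clk1 was at 13.0, 11.1, 15.6 and 14.8 in controls and at 14, 13.7, 12.1 and 14.7 in Usp39-HKO livers, with full overlap and a log2 fold change of 0.00 (interval -0.26 to 0.26). Clk4 was at 8.82, 8.69, 9.71 and 9.92 in controls and 10.3, 9.86, 8.70 and 10.6 in Usp39-HKO livers (log2 fold change 0.09, interval -0.13 to 0.30). CLK1 and CLK4 are close paralogs that release SR proteins from speckles, and their genes make retained-intron transcripts that a count per gene includes. Clk3 was lower in every Usp39-HKO liver, at 3.67 to 4.06 against 4.41 to 5.04, with a log2 fold change of -0.28 (edgeR adjusted p = 0.0546). Srpk2 had -0.35 (interval -0.64 to -0.05, adjusted p = 0.087), Clk2 -0.19 and Srpk1, which phosphorylates SR proteins in the cytoplasm for import into the nucleus, 0.01 (interval -0.26 to 0.27). Exons of Edc3, on the opposite strand, cover 15.2% of the exon length of Clk3.

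The 3 speckle genes were not called either, again too few to set against the 22.5% of all genes. Srrm2, a scaffold of nuclear speckles, was at 37.1, 32.9, 36.3 and 38.2 in controls and at 28.9, 31.0, 27.1 and 35.2 in Usp39-HKO livers, where Usp39-HKO 4 overlapped the controls, with a log2 fold change of -0.24 (SE 0.12, edgeR adjusted p = 0.162) and 0.00 without TMM. Son, the other scaffold, was at 28.8, 22.8, 26.9 and 26.4 in controls and 25.9, 28.5, 25.7 and 30.9 in Usp39-HKO livers (log2 fold change 0.08, interval -0.17 to 0.34). The coactivator Srrm1 had -0.11 (interval -0.33 to 0.11).

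Leaving out 1 mouse left between 2 and 5 members called, while 13.6% to 23.8% of all genes tested in those fits were. Without control 4, the liver with pancreas genes, and without Usp39-HKO 4, the liver farthest from the controls, 2 members were called each time. They were Esrp2 and Hnrnpul2 in the first case and Esrp2 and Hnrnph3 in the second. Without control 2, 5 members passed, of which 3 were among the 6, and Hnrnpab and Hnrnpll were gained.

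**Figure D5:**
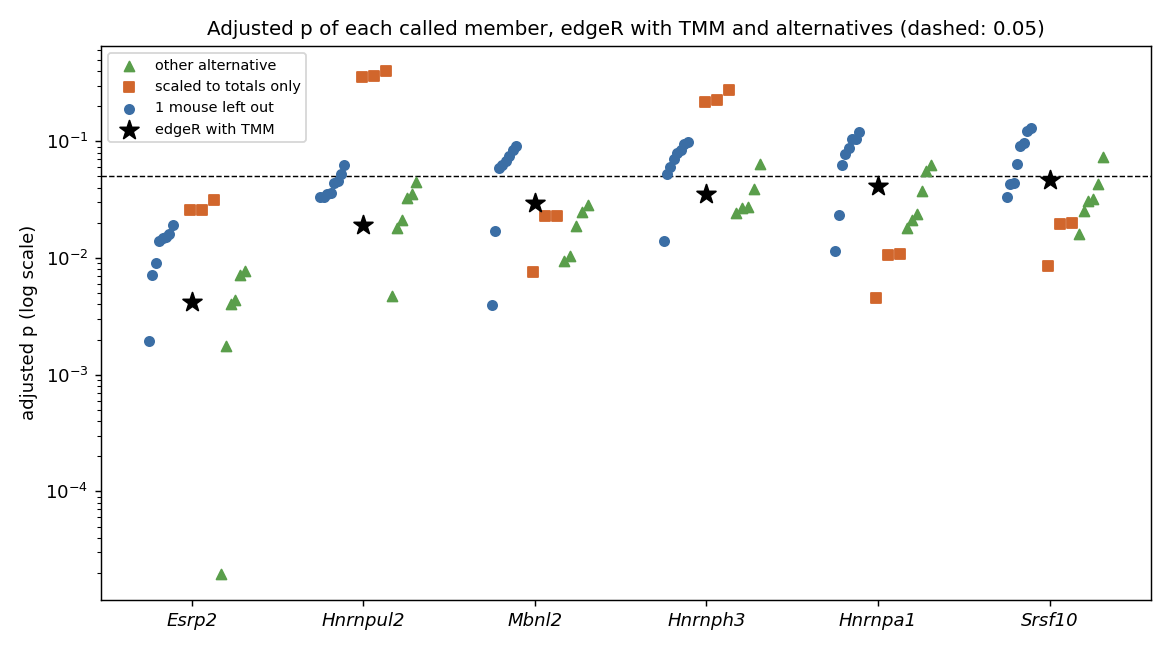
Adjusted p (vertical log axis) of the 6 called members with edgeR and TMM (star) and under each alternative, by kind: 1 mouse left out, values scaled to totals only, and others. Points above the dashed line at 0.05 are lost calls, and Esrp2 has none.

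Other regulators of splicing, 64 genes of the same pathway outside these families, were read beside the members. Of the 53 tested, 7 rose, 1 fell and 45 were not called, with a median log2 fold change of 0.07. The 8 called are 15.1%, against 22.5% of all genes tested (10.9% higher, 11.6% lower). Without TMM, 18 were called, when 29.4% of all genes were. Srrm4, which activates microexons and is best known from neurons, rose from 2.41 ± 0.139 to 4.98 ± 0.898 (SD, n = 4), by 1.04 on the log2 scale (SE 0.14, edgeR adjusted p = 0.000947). Ilf2, Syncrip and Zranb2 rose by 0.58, 0.46 and 0.62 (adjusted p = 0.00916, 0.0111 and 0.0214). The helicase gene Ddx17 was the 1 that fell, from 33.3 ± 2.30 to 24.3 ± 2.41, with a log2 fold change of -0.46 (SE 0.11, adjusted p = 0.0124).

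The members share features that the choice by symbol did not use. A transcript marked for nonsense-mediated decay is annotated (GENCODE vM21) for 34 of the 52 members (65.4%), against 28.3% of the 11763 protein-coding genes tested. It is annotated for 11 of 13 SR genes, 13 of 23 hnRNPs, 6 of 6 kinases and 3 of 3 speckle genes, but for 1 of 7 tissue regulators. Of the 6 called members, Hnrnpa1 and Hnrnph3 have such a transcript and Esrp2, Mbnl2, Hnrnpul2 and Srsf10 have none. A retained-intron transcript is annotated for 41 members (78.8%), against 58.4% of those protein-coding genes, and Esrp2 has 6 of them among 9 transcripts. Members are also longer and lower in GC. The median exon length of the 52 was 6764 bases, against 3668 over all genes tested. The median GC content of the 50 tested members was 44.1%, against 49.4%.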

How the data were processed

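Liver RNA of 8 mice was sequenced as paired-end libraries on an Illumina NovaSeq, 1 library per mouse. The authors aligned reads to mm10 with HISAT2 and counted them per gene with featureCounts, and the processing notes also name Trim Galore 0.6.1 and FastQC 0.11.9. Annotation release, strand setting and handling of reads that map to several genes are not given in the sources used here. The authors deposited raw counts, not normalized, and FPKM, which the counts, exon lengths and totals gave back to within 4.98e-07. Their own comparison was deposited as a mean normalized signal, a log2 fold change, its error and statistic as scores, and p-values, and none of these was used.

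The table's 55699 entries gave 55385 genes after 314 repeats were read once, and the lengths of all 52 members equal those of GENCODE vM21. Counts were fitted for all genes that reached 0.5 FPKM in 4 or more mice (edgeR 4.0.16, quasi-likelihood test, TMM, genotype only, R 4.3.3), with Benjamini-Hochberg adjustment over all 14340. No covariate was used, since the labels name no batch. Mouse numbers follow accession order and pair no mice. Standard errors were derived from fold changes and F values, and 95% intervals from the same fit. P-values are two-sided and judge the difference between the genotypes against the spread between these mice. Levels are counts per kilobase relative to the TMM-scaled total (FPKM scale). Single genes were also compared with an exact permutation test over the 70 assignments of mice. Alternatives were median-ratio and upper-quartile scaling, no TMM, no filter, a mean FPKM of at least 5, DESeq2 1.42.0, limma 3.58.1 on log2(FPKM + 1) and log2(FPKM + 0.1), each mouse left out, and a GC correction added after seeing the data. Shared sequence was searched with BLAST+ 2.17.0+ (at least 150 bases, at least 97% identity). The fit was first tested on simulated data. There it recovered 17 of 67 genes set to differ 1.5-fold (25.4%), and missed the others. It recovered 54 of 67 at 2-fold (80.6%) and 60 of 66 at 3-fold (90.9%). Of 136 calls in that test, 5 were false. Every simulated gene had the same spread between mice (coefficient of variation 0.1786), and 200 of the 14340 genes were changed. In the real data 22.5% of genes were called, so the simulated shares do not give the share recovered among the members.

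The members, the lists and the markers were chosen with earlier results of these data known. Members described in full are those called or past the study's cutoff and the 2 with the highest mean level in each class. Of the other regulators called, the 4 rises and 4 falls with the smallest p were to be named, and only 1 fell. Other members are named with values for completeness, and Hnrnpa0, Hnrnpab, Hnrnpc, Hnrnpll, Srsf6, Srsf9, Srsf11 and Clk3 were chosen for more detail after their values were seen.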

Additional observations from a re-analysis of the deposited data

Results flagged for a closer look

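In 6 of the 100 groups of 4 livers (50 tested members in each genotype), 1 liver stood farther from its nearest neighbour than Dixon's 95% critical value allows, and chance flags about 1 in 20 groups. Values are FPKM on TMM-scaled totals. Hnrnpa0 was highest in control 2, at 62.8, with the next control at 37.1. Hnrnpa2b1 was lowest in control 4, at 50.7, with the next at 54.7, and Rbfox2 was lowest in the same liver, at 6.46, with the next at 7.79. Srpk2 was highest in control 3, at 2.66, with the next at 2.07. Hnrnpc was highest in Usp39-HKO 1, at 28.5, with the next at 23.3, and Hnrnpul2 was lowest in Usp39-HKO 4, at 11.8, with the next at 12.9. Of these genes Hnrnpul2 is the only one called, and its call was lost without Usp39-HKO 4 (log2 fold change -0.30, edgeR adjusted p = 0.0626). Control 4 is the liver in which acinar pancreas genes summed to 513. In control 2, genes of high and low GC content were farthest apart in their median deviation from the genotype mean (0.22 on the log2 scale).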

How the results depend on the processing

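The 3 fits scaled to total counts only (edgeR without TMM, limma on log2(FPKM + 1), limma on log2(FPKM + 0.1)) moved most values: 19, 16 and 16 members were called, of which 18, 15 and 15 were higher and 1 lower in each, 18, 14 and 15 other splicing regulators were called, against 29.4%, 25.6% and 25.7% of all genes (24.5%, 21.1% and 21.3% higher, 4.9%, 4.44% and 4.37% lower), and the median of the members was 0.30, 0.26 and 0.29. The median over all genes was 0.23, 0.17 and 0.22 in these fits. At the study's cutoff, 7 members passed without TMM and 6 in limma with 0.1 added, against 26.4% and 25.2% of all genes. Usp39 was at -0.18, -0.16 and -0.18 and no longer called. Signs turned there for Srsf5 (0.01), Srsf2 (0.22) and Hnrnpa2b1 (0.09) in all 3, for Celf1 (0.02, 0.01 and 0.01) and, without TMM only, for Srrm2 (0.00). On the deposited FPKM, 17 members did not overlap, against 8. Upper-quartile scaling gave a median of 0.13. Without a filter 1 member was higher (6.41% of all genes), and with a mean FPKM of at least 5, where 39 members were tested, 1 passed the study's cutoff (17.7% of all genes) and the median was 0.16. Genes near 0 also changed sign elsewhere: Srsf2 (0.06 with upper-quartile scaling, 0.07 with the higher filter, 0.01 with GC correction, and -0.05 to 0.06 with 1 mouse left out, positive without control 4, Usp39-HKO 3 or Usp39-HKO 4) and Clk1 (-0.03 without a filter and with GC correction, and -0.09 to 0.07 with 1 mouse left out, negative without control 1, control 2 or Usp39-HKO 4). With 1 mouse left out, 2 to 5 members were called, 0 to 3 higher and 1 to 2 lower, 1 to 5 passed the study's cutoff (17.9% to 23.9% of all genes), 4 to 9 other regulators were called, the median was 0.02 to 0.07 and Usp39 was at -0.45 to -0.35. The cause of these moves was not tested. No paired analysis was possible because the labels give the mice no shared numbers. Members tested had at least 80 counts in each liver, and the parts of counting error and of spread between mice were not separated. Esrp1 and Srsf12 could not be compared at this depth.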
